A study of Homo sapiens with 6 samples.

Results

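Direct target genes of the YAP-TEAD complex were examined in HCT116 cells, a human colorectal carcinoma line. The 10 genes were CTGF, CYR61, ANKRD1, AMOTL1, AMOTL2, AJUBA, F3, TGFB2, CRIM1 and NT5E. They were taken by symbol from a list, out of 19871 genes with a symbol in the deposited tables. The list was chosen with earlier results of these data known. Estimated counts of the 42 listed transcripts of these genes were summed by gene. Strand-specific lncRNA libraries had been prepared from 3 groups of cells, with 2 libraries per group and 6 in all. NC was the negative control, GAS5 was made by transfection of a plasmid for the long noncoding RNA GAS5, and siYAP by transfection of YAP-specific siRNA. What the NC cells were transfected with is not stated, nor which YAP siRNA sequence was used for sequencing, and all values come from 1 cell line. The tables give 1 value per group, the authors' mean over its libraries, so no spread between libraries could be computed and no p is given. The RNA came from whole cultures, so fewer cells expressing a gene and less RNA per cell cannot be told apart.

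YAP, encoded by YAP1, is a transcriptional co-activator of the Hippo pathway. When the kinases of that pathway are inactive, YAP enters the nucleus and binds TEAD transcription factors, which recognise short DNA motifs in promoters and enhancers. CTGF, CYR61 and ANKRD1 are the target genes most often used as a readout of this activity, and several targets, such as AMOTL2 and AJUBA, encode proteins that act back on the pathway. In colorectal cancer cells YAP is known for driving proliferation and invasion.

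The motif that TEAD factors bind most strongly contains GGAATG, and its positions near the starts of the target genes are shown because binding of TEAD to DNA is what the name direct target refers to, although a motif alone does not show binding. RefSeq windows of 300 bases (GRCh38.p14, from 250 bases before to 50 bases after an annotated start) were found for 8 of the 10 genes, CTGF under its current symbol CCN2. For CYR61 and CRIM1 no window was used. GGAATG was searched on both strands, so that it reads CATTCC where it lies on the opposite strand, and it was present in 5 of the 10 windows of these genes and in 4928 of all 35116 windows of that length. CTGF had 3 copies, beginning at positions -169, -104 and -95 counted from the start, and ANKRD1 had 2, at -220 and -128. Windows with at least 2 copies made up 1.37% of all windows. AMOTL2, AJUBA and TGFB2 had 1 copy each. AMOTL2 and AJUBA each also had a window without a copy. AMOTL1, F3 and NT5E had none in these windows, which says nothing about enhancers farther away. The AP-1 motif TGANTCA was present in the windows of ANKRD1 and F3 and in 7.71% of all windows, and no match overlapped a TEAD match. Capitals below mark the TEAD motif, and each sequence is written 5′ to 3′ along the gene.

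The CTGF sequence is the 250 bases before the start, chr6:131951373-131951622 on the minus strand, and the others show 30 bases around a copy, whose position is given in the sentence after them.
CTGF: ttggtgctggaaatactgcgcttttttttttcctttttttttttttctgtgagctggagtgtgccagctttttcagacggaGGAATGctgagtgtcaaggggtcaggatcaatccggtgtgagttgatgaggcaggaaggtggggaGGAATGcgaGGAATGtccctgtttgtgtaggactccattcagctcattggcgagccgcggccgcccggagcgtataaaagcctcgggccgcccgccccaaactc
ANKRD1, upstream copy: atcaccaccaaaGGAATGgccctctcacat
ANKRD1, downstream copy: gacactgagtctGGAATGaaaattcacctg
AMOTL2: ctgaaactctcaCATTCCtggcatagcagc
AJUBA: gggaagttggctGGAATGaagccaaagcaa
TGFB2: tgtcagggcgcaCATTCCacctccttcctc
The ANKRD1 copies lie at chr10:90921302-90921307 and chr10:90921210-90921215, the AMOTL2 copy at chr3:134374511-134374516, the AJUBA copy at chr14:22976896-22976901 and the TGFB2 copy at chr1:218345151-218345156. The ANKRD1, AMOTL2 and AJUBA genes are on the minus strand and TGFB2 is on the plus strand. In GENCODE 29 the ANKRD1 transcript starts at position -189 of the RefSeq window's numbering, so the downstream copy falls inside that transcript. The AJUBA copy belongs to an internal RefSeq start, and the main AJUBA transcript, ENST00000262713, starts at position -5800 from it. This transcript starts at position -91 from the RefSeq start of the other AJUBA window, which held no copy. The TGFB2 transcript with counts starts 899 bases after the RefSeq start used here.

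Mean counts of the 2 libraries, summed over all transcripts with or without a symbol, were 27206123 for NC, 25521577 for GAS5 and 26298036 for siYAP. The siRNA target was lower in its group. YAP1 had 3480 counts in NC against 2912 in GAS5 and 1533 in siYAP after scaling by TMM to the NC total, which gave log2 fold changes of -0.26 (95% interval -0.31 to -0.21) in GAS5 and -1.18 (-1.25 to -1.12) in siYAP. These and all following intervals are Wilson intervals that cover counting error only. GAS5 itself has no entry in the mRNA tables. WWTR1, which encodes the YAP paralog TAZ, was at 1809 counts in NC against 1729 in GAS5 and 2123 in siYAP on the same scale, a log2 fold change of 0.23 in siYAP. TEAD1 was at 5626 in NC against 4500 in GAS5 and 5613 in siYAP. TEAD2, TEAD3 and TEAD4 lay between -0.06 and 0.14 on the log2 scale in siYAP. All 6 epithelial markers were present, with EPCAM at 5958 counts in NC, and their summed level was 3371 FPKM in NC against 3807 in GAS5 and 4488 in siYAP. In siYAP their median log2 fold change was 0.46, with KRT8 at 0.46, KRT18 at 0.45, KRT19 at 0.49, CLDN4 at 0.76, CDH1 at 0.20 and EPCAM at -0.08, values close in size to those of AMOTL2 and NT5E below, and their part in those values was not tested. In GAS5 the median was 0.04, with CDH1 at -0.42. Of 15 fibroblast, endothelial and leukocyte markers, DCN, LUM and PTPRC were at 0 in every group and 5 had a mean count of at least 10. The 2 fibroblast markers among these went opposite ways. COL1A1 had log2 fold changes of 0.67 in GAS5 and 0.60 in siYAP, and PDGFRB, with 17 mean counts in NC, of -0.90 and -0.47.

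No target gene was lower by 0.5 or more on the log2 scale in siYAP or in GAS5. Of the 10 genes, 9 reached a mean of 10 counts over the groups and were compared with all genes that passed the same minimum. TGFB2, with a mean of 9.67, was left out of the counts. In siYAP, 0 of the 9 genes were at or below -0.5, against 7.77% of all 13219 genes, and 0 were at or below -1, against 1.11%. In the same group, 3 of the 9 were at or above 0.5 (AMOTL2, ANKRD1 and NT5E), against 6.59% of all genes, and 0 were at or above 1, against 0.976%. In GAS5, 0 of the 9 were at or below -0.5, against 5.06% of all genes, and 0 at or below -1, against 0.787%. There, 3 of the 9 were at or above 0.5 (ANKRD1, CTGF and CYR61), against 5.73%, and 2 were at or above 1 (ANKRD1 and CYR61), against 1.77%. The median log2 fold change was 0.16 in siYAP and 0.30 in GAS5, and that of all genes was 0.00 in both. With 9 genes, a share this size rests on very few genes, and 0 of 9 genes lower lies near the share of all genes. ANKRD1, with 4 mean counts in NC and 8.5 in siYAP, passed the minimum only through its 18.5 counts in GAS5, the group where it was highest, and its siYAP interval included 0. Without ANKRD1, chosen after its values were seen, 2 of 8 genes were at or above 0.5 in GAS5 (CTGF and CYR61), 1 of 8 was at or above 1 (CYR61) and 2 of 8 were at or above 0.5 in siYAP (AMOTL2 and NT5E). The median of the 8 genes was 0.14 in GAS5 and 0.14 in siYAP. AMOTL2 was just under 0.5 in siYAP when scaled by total counts, which left 2 of the 9 genes at or above that value. Both comparisons use the same NC values, and the fold changes of a gene in the 2 groups are therefore not independent.

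**Figure D1:**
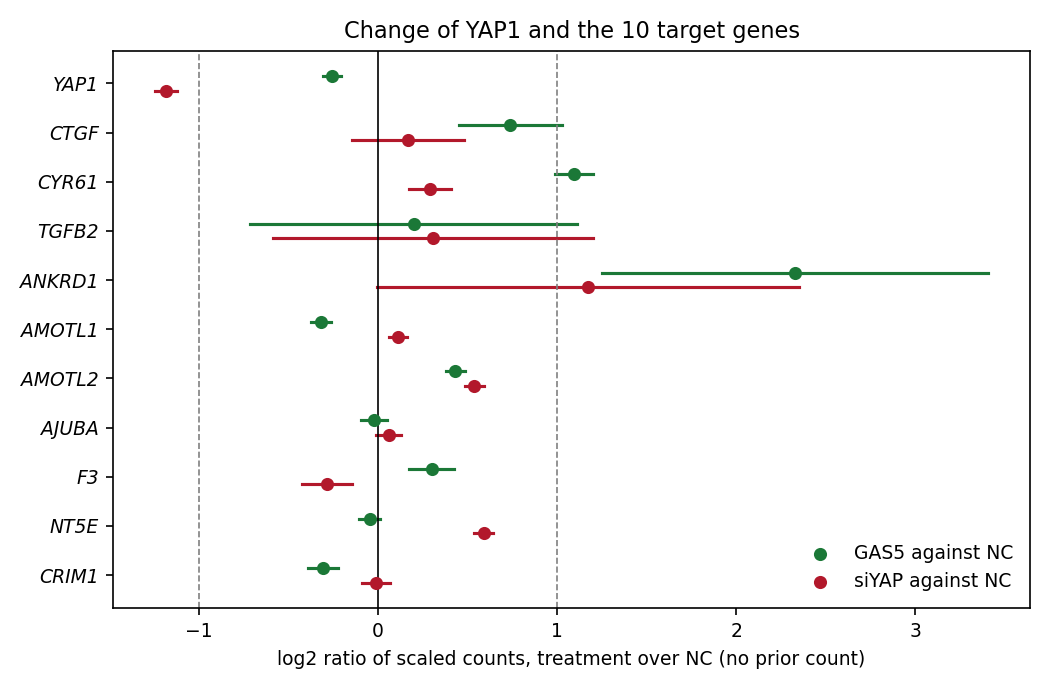
The x axis gives the log2 ratio of scaled counts, treatment over NC, without a prior count, for YAP1 and the 10 target genes on the y axis, with GAS5 in green and siYAP in red. Points are ratios of group means, lines are 95% Wilson intervals for counting error only and dashed lines mark a 2-fold change. YAP1 lies below -1 in siYAP, while CYR61 and ANKRD1 lie above 1 in GAS5, as does ANKRD1 in siYAP with an interval from -0.01 to 2.35.

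**Figure D2:**
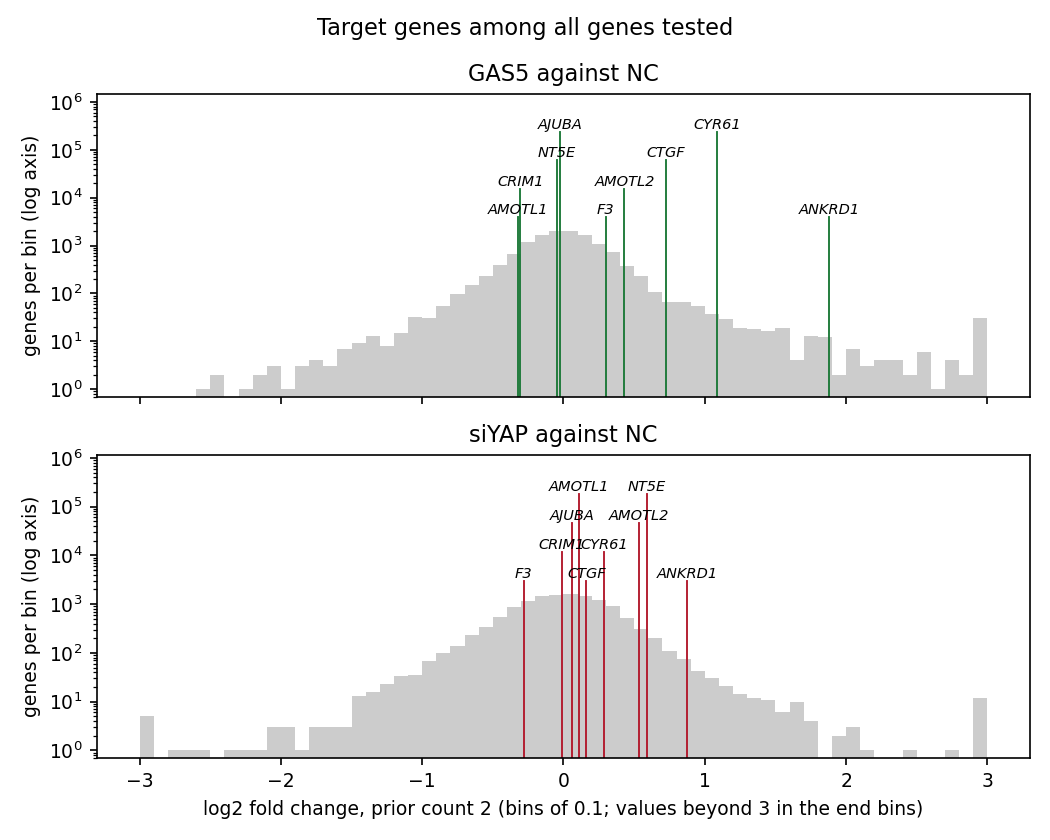
Grey bars count all 13219 genes tested in bins of the log2 fold change on the x axis, with the number of genes on a logarithmic y axis, for GAS5 above and siYAP below. Coloured lines mark the 9 target genes tested (their heights only separate the labels), which run from -0.32 to 1.88 in GAS5 and from -0.28 to 0.88 in siYAP.

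The levels of the target genes per transcript length spanned a wide range in these cells. FPKM, a fragment count scaled by transcript length and library depth, were summed over the transcripts of each gene. In NC the order was NT5E at 27.1 FPKM, AMOTL2 at 21.4, AJUBA at 18.5, AMOTL1 at 12.8, CRIM1 at 8.92, CYR61 at 8.50, F3 at 7.53, CTGF at 1.23, ANKRD1 at 0.075 and TGFB2 at 0.065. CTGF stood at percentile 13.5 of the tested genes by this level, and NT5E at percentile 77.8. Of the readout genes, CTGF and ANKRD1 were among the 3 lowest of the list, while CYR61 lay between the cell-surface genes CRIM1 and F3. CYR61 ranked above AMOTL1 and CRIM1 in GAS5, where it had 17.7 FPKM against 9.99 for AMOTL1 and 7.36 for CRIM1. In siYAP, NT5E reached 39.3 FPKM and AMOTL2 30.8. Without a spread between libraries it cannot be said which neighbours in this order differ, and CRIM1, CYR61 and F3 lay close together in NC.

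**Figure D3:**
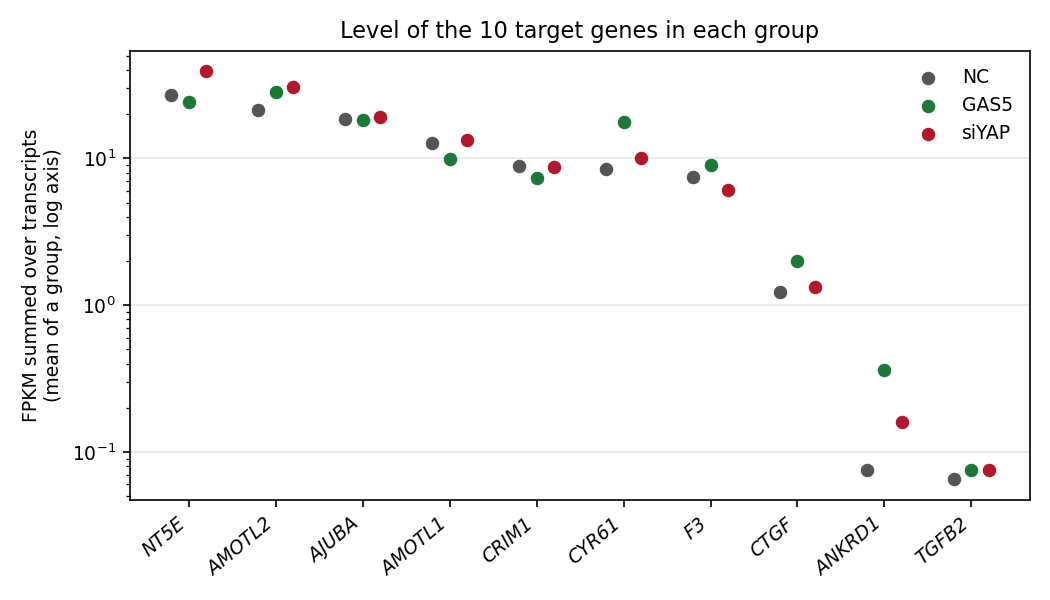
The level of each gene is given as FPKM summed over its transcripts on a logarithmic y axis, with 1 point for the mean of each group and genes ordered by the level in NC. No error bars are drawn because the tables hold group means. NT5E is the highest gene in NC with 27.1 FPKM and TGFB2 the lowest with 0.065.

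CTGF and CYR61 encode secreted matricellular proteins of the CCN family, which bind integrins and the extracellular matrix, and GAS5 values exceeded NC values for both. CYR61 (ENSG00000142871, chr1:85580761-85583962 on the plus strand, GRCh38 and GENCODE 29) had 539.5 mean counts in NC against 1058 in GAS5 and 621 in siYAP, before scaling. The GAS5 value was the highest of the 3 groups and the siYAP value lay between the others. After scaling, CYR61 was 2.13-fold of NC in GAS5 (log2 fold change 1.09, interval 0.99 to 1.20) and 1.22-fold in siYAP (0.29, 0.17 to 0.41). The gene was at percentile 98.5 of all tested genes in GAS5 and at percentile 81.7 in siYAP. It is represented by a single transcript, ENST00000451137, so its count is not divided between isoforms.

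CTGF (ENSG00000118523, chr6:131948176-131951373 on the minus strand), whose promoter sequence with 3 TEAD motifs is given above, had 79.5 mean counts in NC against 122 in GAS5 and 84 in siYAP. All of these counts belonged to ENST00000367976, and the other listed transcript, which was assembled from the reads, was at 0 in every group. CTGF was 1.67-fold of NC in GAS5 (log2 fold change 0.72, interval 0.45 to 1.03) and 1.12-fold in siYAP (0.16, -0.15 to 0.48). In siYAP the interval for counting error alone included 0. CTGF was at percentile 97.0 in GAS5 and 69.1 in siYAP.

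ANKRD1 encodes a nuclear ankyrin repeat protein best known from stressed heart muscle. The gene (ENSG00000148677, chr10:90912096-90921276 on the minus strand) had 4 mean counts in NC against 18.5 in GAS5 and 8.5 in siYAP, all in ENST00000371697. Its level was at the limit of what this depth measures, with an NC value of 0.075 FPKM. The ratio to NC was 5.03 in GAS5, with an interval from 1.25 to 3.41 on the log2 scale, and 2.26 in siYAP, with an interval from -0.01 to 2.35. With the prior count of 2 the log2 fold changes were 1.88 and 0.88.

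TGFB2, a ligand of the TGF-beta receptors, was barely detected. The gene (ENSG00000092969, chr1:218346235-218444619 on the plus strand) had 9 mean counts in NC against 9.5 in GAS5 and 10.5 in siYAP, all in ENST00000366930, while ENST00000366929 was at 0 in every group. Its intervals ran from -0.72 to 1.11 in GAS5 and from -0.59 to 1.20 in siYAP, so no direction was detectable at this depth.

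AMOTL1 and AMOTL2 encode angiomotin-like proteins, which sit at cell junctions and can hold YAP outside the nucleus, and their values differed from each other in both groups. AMOTL2 (ENSG00000114019, chr3:134355874-134375479 on the minus strand) had 2593 mean counts in NC against 3219 in GAS5 and 3545 in siYAP. After scaling it was 1.35-fold of NC in GAS5 (log2 fold change 0.43, interval 0.38 to 0.48) and 1.45-fold in siYAP (0.54, 0.49 to 0.59), and NC was the lowest of the 3 groups. AMOTL1 (ENSG00000166025, chr11:94706431-94876753 on the plus strand) had 3159 in NC against 2328 in GAS5 and 3213 in siYAP, or log2 fold changes of -0.32 (-0.37 to -0.27) in GAS5 and 0.11 (0.06 to 0.16) in siYAP. AMOTL1 in GAS5 was the lowest fold change of any tested target gene in either comparison.

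The transcripts of AMOTL2 did not move by the same amount. ENST00000249883 had 1003 counts in NC against 1698 in GAS5 and 1221 in siYAP after scaling, and so made up 38.7%, 48.5% and 32.5% of the gene. ENST00000422605 had 676 in NC against 744 in GAS5 and 1341 in siYAP, which was 26.1%, 21.3% and 35.6% of the gene. The GAS5 value was therefore the highest of the 3 groups for the first transcript and the siYAP value for the other. The starts of these transcripts are 147 bases apart in GENCODE 29. ENST00000422605 starts at the RefSeq start whose upstream TEAD motif is printed above, and the same motif lies after the start of ENST00000249883. The assembled transcript TCONS_00104598 had 787 counts in NC against 1042 in GAS5 and 1192 in siYAP after scaling. Another assembled transcript, TCONS_00104599, had 126 counts in NC and was listed at 0 in both treatments. Counts of transcripts that overlap are estimates by the authors, and how reads were divided between them was not tested.

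AJUBA, a LIM domain protein that binds LATS kinases and restrains their action on YAP, was nearly the same in the 3 groups. The gene (ENSG00000129474, chr14:22971174-22982642 on the minus strand) had 1613 mean counts in NC against 1461 in GAS5 and 1584 in siYAP. Its log2 fold changes were -0.02 (interval -0.09 to 0.05) in GAS5 and 0.06 (-0.01 to 0.13) in siYAP, both with intervals that included 0. The main transcript, ENST00000262713, made up 49.2% of the gene in NC against 49.9% in GAS5 and 53.0% in siYAP.

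F3, NT5E and CRIM1 encode proteins of the cell surface, and each showed another order of the groups. F3 encodes tissue factor, which starts blood coagulation. The gene (ENSG00000117525, chr1:94529225-94541800 on the minus strand) had 467 mean counts in NC against 528.5 in GAS5 and 361.5 in siYAP. F3 was the only target gene whose interval lay entirely below 0 in siYAP, with a log2 fold change of -0.28 (-0.42 to -0.14), and it was at percentile 19.8 of all genes. In GAS5 the value was 0.30 (0.17 to 0.43), so the groups lay on opposite sides of NC. The main transcript, ENST00000334047, had 395 counts in NC against 547 in GAS5 and 278 in siYAP after scaling, a log2 fold change of -0.50 in siYAP. The shorter ENST00000370207 had 9.26, 27.1 and 31.5 in the same order. The assembled TCONS_00009616 had 63.1 counts in NC and 74.1 in siYAP and was listed at 0 in GAS5.

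NT5E encodes CD73, the ecto-enzyme that makes adenosine from AMP outside the cell. The gene (ENSG00000135318, chr6:85449584-85495791 on the plus strand) had 2320 mean counts in NC against 2064 in GAS5 and 3290 in siYAP. NT5E was higher in siYAP, at 1.51-fold of NC (log2 fold change 0.59, interval 0.54 to 0.64), which was percentile 95.6 of all genes. In GAS5 it was at -0.05 (-0.11 to 0.01). The main transcript, ENST00000257770, held 91.3% of the counts in NC and 89.0% in siYAP, where its log2 fold change was 0.55. ENST00000369651, which starts farther upstream, had 82.9 counts in NC against 164 in GAS5 and 203 in siYAP after scaling.

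CRIM1 encodes a transmembrane protein that binds BMP ligands. The gene (ENSG00000150938, chr2:36355926-36551135 on the plus strand) had 1334 mean counts in NC against 992.5 in GAS5 and 1248 in siYAP. It was lower in GAS5, with a log2 fold change of -0.31 (interval -0.39 to -0.22) at percentile 12.6, and close to NC in siYAP at -0.01 (-0.09 to 0.07). ENST00000280527 carried 91.3% of the counts in NC and 85.4% in GAS5, and the assembled TCONS_00077853 carried 8.45% and 14.6%.

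**Figure D4:**
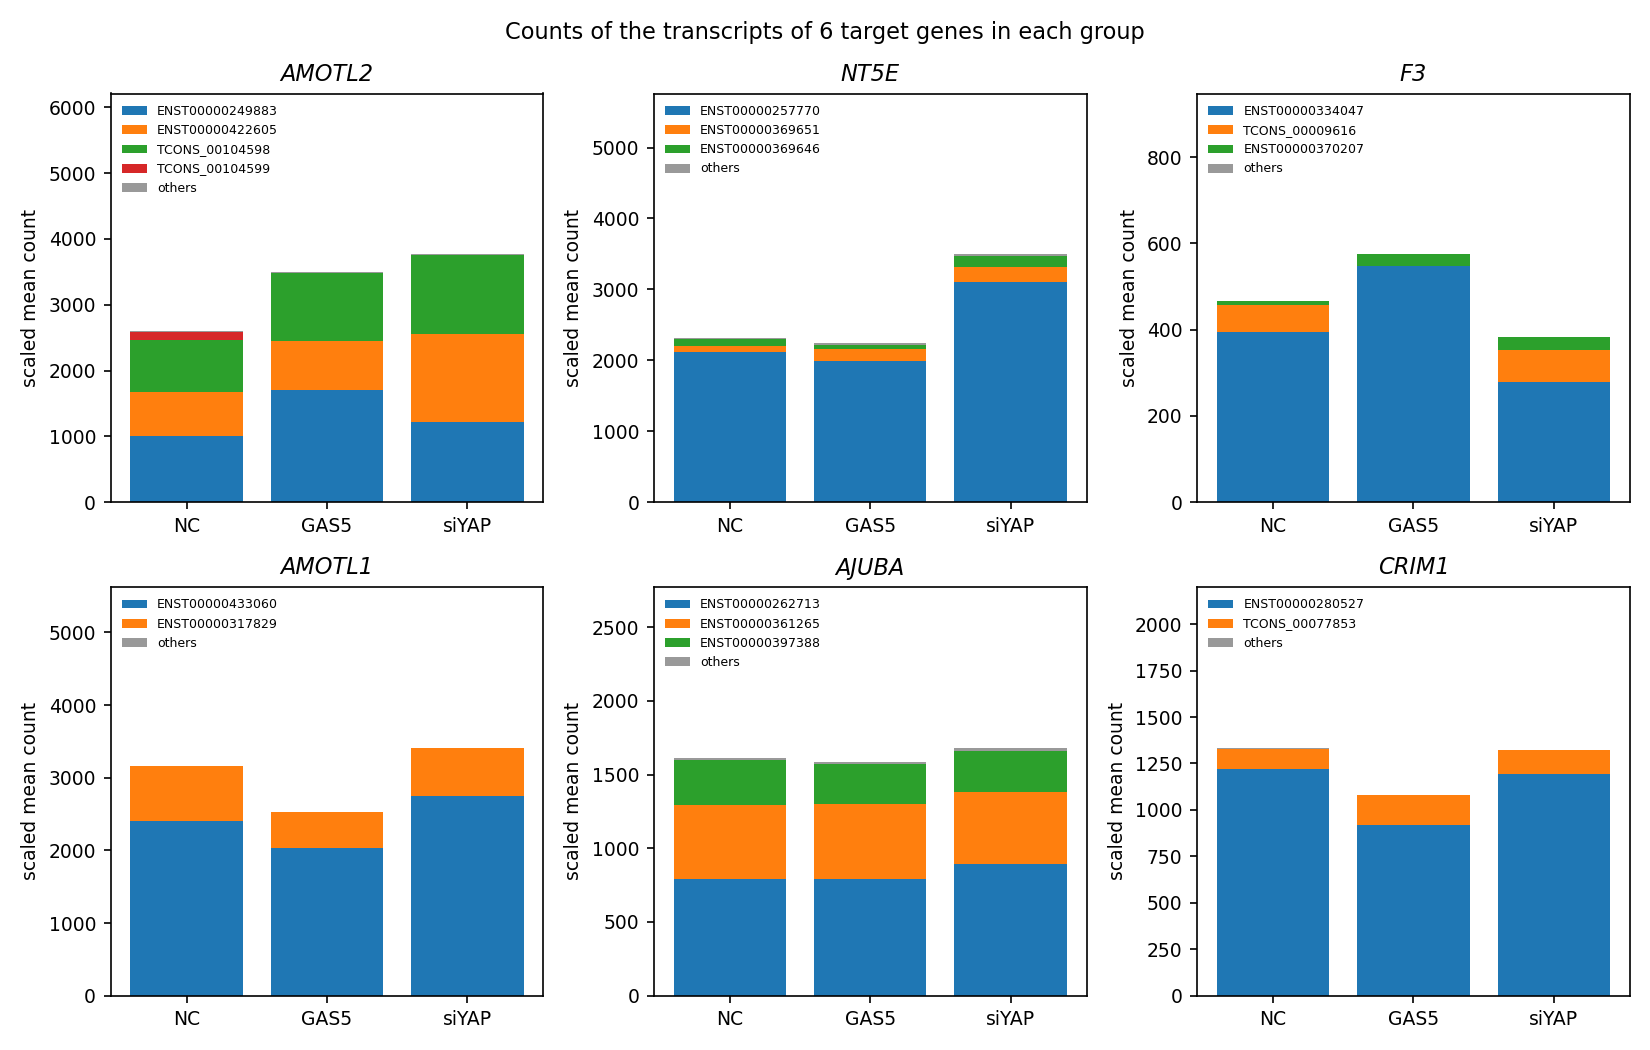
Stacked bars give mean counts scaled to NC on the y axis for the transcripts of AMOTL2, NT5E, F3, AMOTL1, AJUBA and CRIM1 in each group, with transcripts under 20 counts in every group pooled as others. In AMOTL2 the share of ENST00000422605 is 26.1% in NC and 35.6% in siYAP, and the share of ENST00000249883 is 48.5% in GAS5.

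A wider list of 25 genes reported as YAP or TAZ targets was read in the same way, and 23 of them were tested. In siYAP their median was 0.05. There, 1 of the 23 was at or below -0.5, against 7.77% of all genes, and 5 were at or above 0.5, against 6.59%. FRMD6, a FERM domain protein of the Hippo pathway, was the gene that was lower, with 701 mean counts in NC and 365.5 in siYAP (log2 fold change -0.85). Among the higher genes, FJX1 was at 0.60 and AXL, a receptor tyrosine kinase, at 0.59. EDN1 was at 0.58, with an interval from -0.22 to 1.63, and NUAK2 at 0.51. THBS1, an extracellular matrix glycoprotein, was at -0.41. In GAS5 (median 0.01), 0 of the 23 were at or below -0.5, against 5.06%, and 4 were at or above 0.5, against 5.73%. Among these were EDN1 at 0.90 from 7.5 mean counts in NC, the kinase gene NUAK2 at 0.59 and GADD45A at 0.54. EDN1 had 11.5 counts in siYAP and passed the minimum only through its 14.5 in GAS5, the group where it was highest. It is included in the higher genes of both groups. AXL, THBS1, NUAK2 and GADD45A were named after their values were seen.

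Of 15 genes of the Hippo machinery, all tested, 3 were at or below -0.5 in siYAP, against 7.77% of all genes. One of these was YAP1, the target of the siRNA itself, and the others were MOB1A at -0.60 and STK3 at -0.58. STK3 encodes the MST2 kinase and MOB1A an adaptor of the LATS kinases. LATS2, a kinase that inactivates YAP and stands on the wider target list, was at 0.46 in siYAP and 0.47 in GAS5. In GAS5, 0 of the 15 were at or beyond 0.5 in either direction, against 5.06% of all genes lower and 5.73% higher.

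CYR61 is also an immediate-early gene, switched on within minutes by serum and stress, and a list of 15 other immediate-early genes was read beside it. Of these, 9 were at or above 0.5 in GAS5, against 5.73% of all genes, and 8 in siYAP, against 6.59%. The medians were 0.96 and 0.50. In either group 0 were at or below -0.5, against 5.06% of all genes in GAS5 and 7.77% in siYAP. JUN had 391 mean counts in NC against 2256 in GAS5 and 595.5 in siYAP, a log2 fold change of 2.64 in GAS5 and 0.69 in siYAP. EGR1 was at 1.61 in GAS5 and 0.71 in siYAP, EGR2 at 1.86 and 0.86, and EGR3 at 1.58 and 1.39. SRF, the factor that drives many of these genes, was at 0.15 and 0.33. In GAS5, IER3 was at -0.32 and MYC at -0.09, and in siYAP, ATF3 was at -0.10. SRF, IER3, MYC and ATF3 were named after their values were seen. The GAS5 group also had higher interferon-stimulated genes, read as a list of 12 chosen with this known. All 12 were at or above 1 in GAS5, against 1.77% of all genes, with IFIT1 at 3.92. The siYAP median of the list was 0.19. CD14 was at 37.5 mean counts in GAS5 against 4.5 in NC, and the summed level of the 5 leukocyte markers was 4.52 FPKM in NC against 6.70 in GAS5 and 4.35 in siYAP. The part of these changes in the values of CYR61, CTGF and ANKRD1 was not tested. Plasmid and siRNA transfection differ between the groups, and their effect cannot be told apart from that of GAS5 or YAP.

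**Figure D5:**
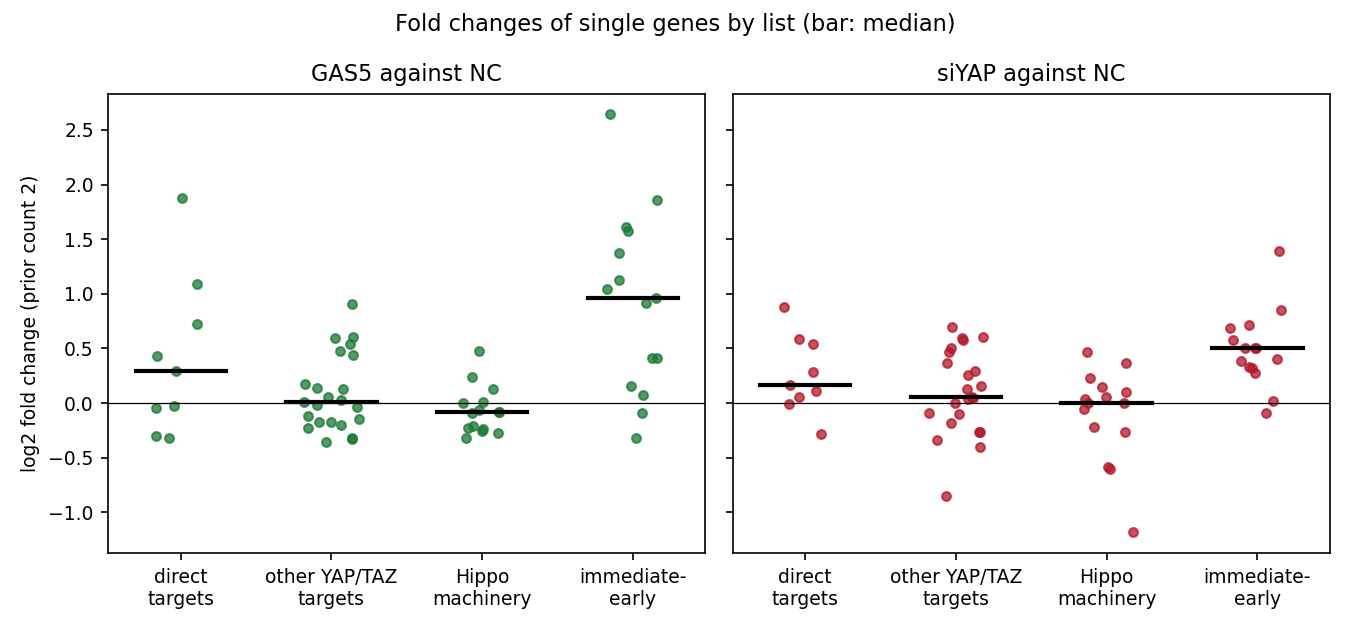
Each point is the log2 fold change of a tested gene on the y axis, for the direct targets, the wider YAP or TAZ target list, the Hippo machinery and the immediate-early genes on the x axis, with GAS5 at left and siYAP at right, and bars mark medians. The medians in GAS5 are 0.30, 0.01, -0.09 and 0.96 in that order, and in siYAP 0.16, 0.05, 0.00 and 0.50.

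Genes with a like pattern were sought for the pair of CCN genes by the distance between their log2 fold changes in GAS5 and siYAP, among 11238 genes whose mean count reached 100. The nearest to CYR61 were AC126755.2, TRANK1 and ZNF296, at distances of 0.05 to 0.09. The nearest to CTGF were ATP5G1, FDX2 and CEP164, at distances of 0.03 to 0.05. None of these is a target gene of the lists, and a likeness over the means of 3 groups holds little information.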

How the data were processed

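HCT116 lncRNA-seq tables of mRNA transcripts were analysed for 3 groups of 2 libraries each. Per the labels, TopHat2 2.1.1 was among the authors' tools, and the counting tool and genome build are not given in the sources used here. The deposited expected counts are estimated counts per transcript, and the deposited FPKM values are scaled by length and depth. Both are the authors' means over the libraries of a group, with 0 in FPKM written as 0.001, which was set back to 0. The deposited fold changes, p-values and FDR of the authors were not used. Tables were joined by transcript identifier, symbols came from the siYAP table, and 339 transcripts without a symbol (0.195% to 0.224% of counts) were left out. Gene sums were scaled by TMM (edgeR 4.0.16, R 4.3.3) over genes whose mean count reached 10, with NC as reference. A prior count of 2 was added for log2 fold changes. Wilson intervals (95%) used the counts behind the means of 2 libraries, on the ratio without a prior count. Scaling was tested on simulated data. Positions come from GENCODE 29 on GRCh38 by identifier (36 of the 42 transcripts; the other 6 were assembled) and promoters from RefSeq. Python 3.11.15, pandas 2.3.3 and DESeq2 1.42.0 (size factors) were also used.

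The edgeR quasi-likelihood test needs values per library and was not run. The target genes and all lists were chosen with earlier results of these data known. All 10 target genes are named, as are YAP1, WWTR1 and the TEAD genes, and up to 4 genes per list with the largest absolute change; other genes are said to be named after their values were seen or mark a cell type or list. Alternatives were DESeq2 size factors, total counts, TMM on transcripts, no filter, a prior count of 0.5, FPKM ratios with a pseudocount of 0.01, Ensembl transcripts only and the most abundant transcript. The values of 1 gene of the wider target list are not reported here.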

Additional observations from a re-analysis of the deposited data

How the results depend on the processing

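No paired analysis was possible because single libraries are not separated in the deposited group means. No replicate could be left out either. Of 64 counts of target genes past a threshold under the 8 alternatives, 57 equalled the reported count, 7 differed and 61 were within 1.5 times of it. The number at least 0.5 higher in siYAP was 2 in place of 3 with total counts and with the most abundant transcript, in both without AMOTL2, and in GAS5 it was 4 in place of 3 with Ensembl transcripts only and with the most abundant transcript, in both with AMOTL2 added. Without ANKRD1, an alternative chosen after seeing the data, the number at least 2-fold higher in GAS5 was 1 in place of 2. The number of genes at least 2-fold higher in siYAP was 1 in place of 0 with a prior count of 0.5 and also 1 with the ratio of FPKM sums, and this gene was ANKRD1. The number at least 0.5 lower on the log2 scale in siYAP was 1 in place of 0 with the most abundant transcript alone, and this was F3 at -0.50. Of 144 fold changes of single target genes under these alternatives, 131 stayed within the counting interval, 13 moved out of it and 0 of those whose interval left out 0 changed sign. All values with another scaling of gene sums or no filter stayed within it. AMOTL2 went from 0.43 to 0.76 in GAS5 and from 0.54 to 0.28 in siYAP with its most abundant transcript. F3 was at 0.496 in GAS5 with Ensembl transcripts only, just under 0.5. CYR61 ran from 1.06 to 1.09 in GAS5. Total counts moved the median of all genes to -0.03 in GAS5 and -0.04 in siYAP. Low depth limits ANKRD1, TGFB2 and, in part, CTGF, and no interval here covers the spread between cultures.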

Other observations

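Close relatives of the target genes were read as a further list of 16 genes, of which 9 had a mean count of at least 10. None of the 9 was at or below -0.5 on the log2 scale in either group, against 5.06% of all genes in GAS5 and 7.77% in siYAP. In GAS5, 1 of the 9 was at or above 0.5, against 5.73% of all genes, and 0 were in siYAP, against 6.59%. This relative was TGFB3, at 0.90 in GAS5 from 21.5 mean counts in NC. Among the CCN relatives of CTGF and CYR61, NOV had 65 mean counts in NC against 63 in GAS5 and 85.5 in siYAP, while WISP1, WISP2 and WISP3 were listed at 0 in every group. TGFB1 was the abundant TGF-beta ligand of these cells, at 23.7 FPKM in NC against 0.065 for TGFB2, and was at 0.42 in siYAP.

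AMOT, the founding angiomotin and a gene of the wider target list, was at -0.33 in GAS5 and -0.18 in siYAP, so in GAS5 its value lay near that of AMOTL1 and not that of AMOTL2. LIMD1 and WTIP, the other proteins of the AJUBA family, were at -0.06 and 0.42 in GAS5 and at -0.03 and 0.28 in siYAP. ENTPD1, the ecto-enzyme that supplies AMP to CD73, had 1.5 mean counts in NC and was listed at 0 in both treatments, while the adenosine receptor gene ADORA2B had 1025 in NC against 901.5 in GAS5 and 1010 in siYAP. TFPI, the inhibitor of tissue factor, had 509.5, 458.5 and 488.5 in the same order. Genes other than NOV, WTIP, TGFB1 and TGFB3 were named after their values were seen.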
